A study of Mus musculus with 6 samples.

Results

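Fibroblasts of the infarcted mouse heart were compared with fibroblasts of the tissue around the infarct. The cells were chosen on measured values: at least 500 genes detected, at most 10% mitochondrial UMIs (unique molecular identifiers, each standing for 1 captured transcript), at least 1% of UMIs from the collagen genes Col1a1, Col1a2 and Col3a1 together, and no UMI of Cdh5 (endothelial), Ptprc (leukocyte) or Kcnj8 (pericyte). This collagen gate held 6731 cells, of 37323 cells that passed the gene and mitochondrial filters in the 6 libraries of the series. The infarct library gave 5200 of them, which was 59.9% of its 8681 filtered cells (exact 95% interval 58.9 to 60.9%). The peri-infarct library gave 1531, or 19.2% of 7956 cells (18.4 to 20.1%). Because collagen content decided which cells entered, the collagen values below are descriptions of the selection.

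All cells came from Tbx18CreER/+;Rosa26tdT/+ mice, in which tamoxifen, injected for 4 days and then washed out, labels cells that express the transcription factor Tbx18 with the red fluorescent protein tdT. The infarct group was the infarcted area of the left ventricle and the peri-infarct group the surrounding heart without atria, both from mice whose left anterior descending coronary artery (LAD) had been tied off. A sham-operated heart library is given as reference only. Ventricular tissue was digested with collagenase and dispase, tdT-positive cells were sorted, and 3' libraries were made with the 10x Genomics version 3 chemistry. Each group has 1 library, so no difference below has a replicate check and no p-value is given. The labels state neither the time after ligation nor the number of animals, and fibroblasts that never carried the label lie outside the sort. Intervals cover counting error only.

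Fibroblasts are the main source of fibrillar collagen in the ventricle and replace lost muscle with scar after a coronary occlusion. Resting fibroblasts of the interstitium and of the vessel adventitia express surface and matrix genes such as Pdgfra, Tcf21, Pi16 and Clec3b. Activated fibroblasts turn on secreted and contractile genes such as Postn, Cthrc1, Fn1 and Acta2, and can also release chemokines that attract neutrophils and monocytes.

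The gated cells carried fibroblast transcripts in both libraries: each of 10 fibroblast markers exceeded 50 CPM (UMIs of the gene per 1000000 UMIs of the gated cells), with Dcn at 6841 and 10068 CPM and Lum at 1423 and 1583 CPM, infarct first. Col1a1, Col1a2 and Col3a1 are among the 10, and the gate itself set their high level. The median cell had 12687 UMIs and 3534 genes in infarct and 14137 UMIs and 3843 genes in peri-infarct, and the summed libraries held 73489195 and 24132985 UMIs. Summed endothelial markers were at 119 and 116 CPM (12 genes, 1 of them at 0 because the gate removed it) and summed macrophage and monocyte markers at 48.0 and 49.1 CPM (12 genes, 1 at 0 for the same reason). Pericyte markers (9 genes, 1 at 0 for the same reason) summed to 263 and 218 CPM. Of these, Pdgfrb was at 140 and 108 CPM and Rgs5 at 54.6 and 51.3 CPM. Red blood cell transcripts (5 genes) summed to 12.4 and 156 CPM, cardiomyocyte transcripts (12 genes) to 26.4 and 57.2 CPM, and mesothelial and epicardial markers (10 genes) to 284 and 479 CPM. The libraries shared 147 barcodes, of which 2 were in the gate in both. Xist was at 951 and 1071 CPM and the Y-linked Ddx3y at 0 in both. Only 135 cells of the sham library passed the gate, with a median of 1471 UMIs.

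The collagen content of cells differed between the libraries well beyond the gate. Over all filtered cells the 3 collagen genes took a median of 1.72% of UMIs in infarct and 0.491% in peri-infarct. Within the gate the medians were 2.53% and 1.66%. The lower quartile was 1.83% in infarct and 1.23% in peri-infarct, which placed a larger share of the peri-infarct cells just above the threshold. Just outside it, at 0.9 to 1.0%, lay 139 infarct and 248 peri-infarct cells, and just inside, at 1.0 to 1.1%, 162 and 174. In infarct, Gsn was at 2592 CPM outside and 2316 CPM inside, and Cthrc1 at 228 and 311 CPM. In peri-infarct, Gsn was at 9935 CPM outside and 8793 CPM inside, and Cthrc1 at 77.6 and 176 CPM. For Gsn, the cells on either side of the line were closer to each other than to their counterparts in the other library.

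**Figure D1:**
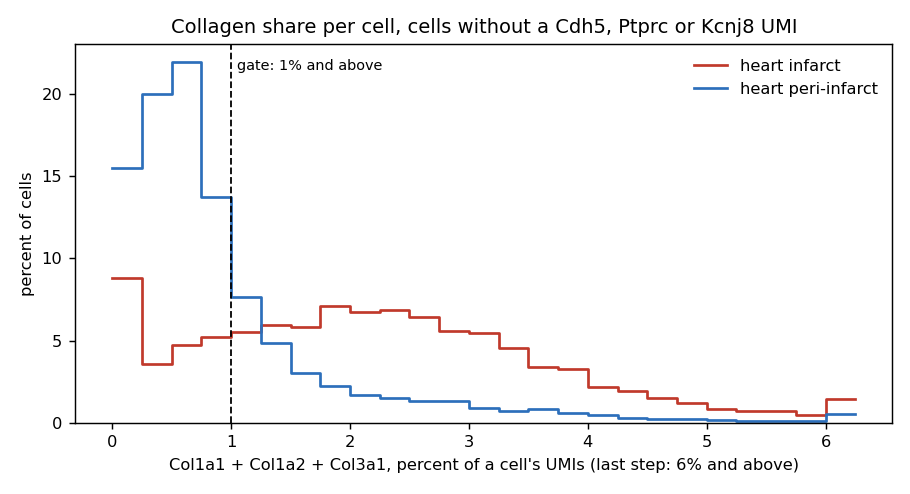
Share of Col1a1, Col1a2 and Col3a1 in each cell's UMIs (horizontal axis, percent) against the percent of filtered cells without a Cdh5, Ptprc or Kcnj8 UMI (vertical axis), for the infarct (red) and peri-infarct (blue) library. The dashed line marks the gate at 1%; the peri-infarct cells peak below it at 0.5 to 0.75% (21.9% of cells), while the infarct cells spread broadly around 2%.

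Few genes differed by 2-fold. UMIs were summed per library and scaled to CPM, and the log2 ratio of (CPM + 1), infarct over peri-infarct, was taken for the 2985 genes that averaged 50 CPM or more over both libraries. Calls use this ratio, while folds printed beside single genes are plain CPM ratios. Those past 2-fold numbered 7 with the higher level in infarct (0.235% of the genes tested) and 17 with the lower level there (0.570%). At 1.5-fold, 47 were higher (1.57%) and 65 lower (2.18%). The median of all tested genes was -0.04 on the log2 scale. Other scalings moved the balance toward higher genes, with 10 higher and 14 lower under edgeR's TMM factors and 11 and 17 for the mean of per-cell CPM. With every cell thinned to 2000 UMIs, 13 were higher and 17 lower.

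**Figure D2:**
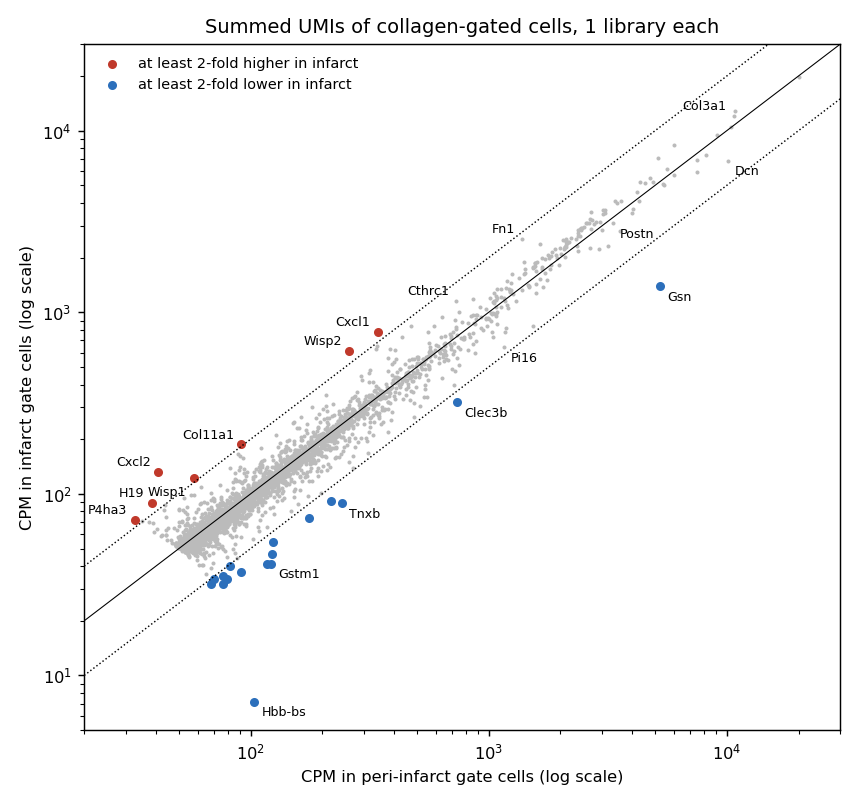
CPM of each tested gene in the peri-infarct gate (horizontal, log scale) and the infarct gate (vertical, log scale), 1 library each; the solid line is equality and dotted lines are 2-fold. The 7 red genes include Cxcl2, Cxcl1 and Wisp2, and Gsn is the abundant gene farthest below the line.

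The 7 genes past 2-fold toward infarct included a neutrophil-attracting chemokine pair, 2 matricellular proteins, a collagen chain, a collagen-modifying enzyme subunit and a noncoding RNA. Cxcl2, a ligand of the neutrophil receptor CXCR2, was at 132 CPM in infarct and 40.9 CPM in peri-infarct, 3.24-fold higher (95% counting interval 3.03 to 3.46). Cxcl1, a second ligand of that receptor, was at 781 and 341 CPM, 2.29-fold higher (2.24 to 2.34). Ccl7, which attracts monocytes, was at 69.9 and 37.5 CPM (1.86-fold), and Cxcl12, the ligand of CXCR4, at 139 and 82.1 CPM (1.69-fold). Ccl2, a further monocyte chemokine, was at 107 and 99.3 CPM, and Il6 was under the level for testing at 41.1 and 36.0 CPM. Of 14 tested genes in the cytokine and chemokine list, 2 passed 2-fold and 4 passed 1.5-fold toward infarct, none passed either toward peri-infarct, and the median log2 ratio was 0.12. Over all tested genes 0.235% passed 2-fold and 1.57% passed 1.5-fold toward infarct. The sham gate had 572 CPM of Cxcl1 and 65.3 CPM of Cxcl2, from 140 and 16 UMIs, so its Cxcl1 lay between both injured libraries.

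Cxcl1 and Cxcl2 lie on the plus strand of chromosome 5 (mm10, GENCODE vM21: Cxcl1, ENSMUSG00000029380, 90891241 to 90893115; Cxcl2, ENSMUSG00000058427, 90903871 to 90905938). Their promoters are shown because both genes were higher in infarct and both hold the motif GGAATTTCC, of the kind bound by the inflammatory factor NF-kappaB. The motif was picked with both genes known to be higher. The 250 bases before each RefSeq start site (GRCm38.p6) are chr5:90890995-90891244 and chr5:90903649-90903898, both on the plus strand, 5′ to 3′, with the motif in capitals.
Cxcl1: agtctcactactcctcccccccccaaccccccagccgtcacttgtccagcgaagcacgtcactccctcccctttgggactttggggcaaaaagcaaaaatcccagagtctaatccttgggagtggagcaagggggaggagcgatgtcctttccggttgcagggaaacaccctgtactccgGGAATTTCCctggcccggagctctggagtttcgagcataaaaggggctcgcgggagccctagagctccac
Cxcl2: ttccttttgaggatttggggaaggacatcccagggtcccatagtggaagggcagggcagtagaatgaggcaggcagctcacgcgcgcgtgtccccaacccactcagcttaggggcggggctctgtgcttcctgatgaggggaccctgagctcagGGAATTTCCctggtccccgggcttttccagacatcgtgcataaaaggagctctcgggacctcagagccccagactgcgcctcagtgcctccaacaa
Each window held the motif once, 70 bases before the start site in Cxcl1 and 96 in Cxcl2, counted from its first base. Searched on both strands (reverse complement GGAAATTCC), it was present in 94 of 32851 RefSeq promoter windows of this length (0.286%). Among tested cytokine and chemokine genes, 11 had an entry and 2, Cxcl1 and Cxcl2, held it. A match describes the letters and was not tested for binding.

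The chemokine transcripts were found in a part of the cells. After thinning each cell to 2000 UMIs, which left out 13 infarct and 10 peri-infarct cells, a Cxcl1 UMI was present in 43.7% of 5187 infarct cells (42.3 to 45.05%) and in 24.7% of 1521 peri-infarct cells (22.5 to 26.9%). Without thinning the shares were 65.1% and 45.9%. Cxcl2 was present in 11.2% (10.4 to 12.1%) and 4.34% (3.37 to 5.49%). Cells of the same libraries with Cdh5 and Pecam1 UMIs and under 1% collagen (the endothelial gate, 191 and 1027 thinned cells, median 5346 and 7008 UMIs before thinning) had Cxcl1 in 8.38% and 7.69% and Cxcl2 in 4.19% and 1.56%. The 2 transcripts tended to occur in the same cells. In infarct, 21.1% of the 2266 cells with Cxcl1 also had Cxcl2, against 3.56% of the others, and in peri-infarct 12.5% of 375 cells against 1.66%. Cxcl2 was far higher in leukocytes (Ptprc and Tyrobp UMIs, 188 and 125 cells), at 4740 and 4059 CPM. Leukocyte markers in the fibroblast gate were at nearly the same level in both libraries, as given above, and the part that free leukocyte RNA had in the Cxcl2 difference was not tested.

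Matrix genes made up most of the other infarct-high genes. Wisp2 (CCN5; ENSMUSG00000027656, chromosome 2, 163820861 to 163833146) was at 613 and 259 CPM, 2.37-fold higher (2.30 to 2.43), and Wisp1 (CCN4; chromosome 15, 66891320 to 66923201) at 122 and 57.6 CPM, 2.12-fold higher (2.01 to 2.25). Both are secreted matricellular CCN proteins. The other 2 tested CCN genes differed little, with Ctgf at 1138 and 1039 CPM and Cyr61 at 229 and 204 CPM. Col11a1, a minor chain of fibrillar collagen that helps set fibril diameter, was at 187 and 91.1 CPM (2.06-fold, 1.97 to 2.15). P4ha3, a subunit of the prolyl hydroxylase that stabilises the collagen helix, was at 71.9 and 32.5 CPM (2.21-fold, 2.05 to 2.38). H19, an imprinted long noncoding RNA, was at 89.5 and 38.4 CPM (2.33-fold, 2.18 to 2.502). Next, with log2 ratios from 0.99 down to 0.89, came, among others, the adhesion molecules Cdh2 (N-cadherin, 70.6 and 35.0 CPM) and Ncam1 (165 and 88.1 CPM), the matrix protein Matn4 (86.3 and 43.5 CPM) and the Wnt modulator Sfrp2 (625 and 337 CPM).

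More cells held a Wisp2 transcript in infarct. A UMI was found in 43.1% of thinned infarct cells (41.8 to 44.5%) and 21.6% of thinned peri-infarct cells (19.5 to 23.7%), against 3.14% and 1.46% in the endothelial gate. Before thinning the shares were 64.3% and 39.6%.

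Fn1, which encodes the matrix glycoprotein fibronectin, was at 2537 CPM in infarct and 1384 CPM in peri-infarct, 1.83-fold higher (1.81 to 1.86), with a median per thinned cell of 4 UMIs against 1. Lox, the collagen and elastin crosslinking enzyme, was at 835 and 474 CPM (1.76-fold). Comp, a cartilage and tendon matrix protein, was at 352 and 207 CPM (1.70-fold). The fibrillar collagens, which the gate used, were at 7084 and 5133 CPM for Col1a1, 8298 and 6010 CPM for Col1a2 and 12077 and 10678 CPM for Col3a1. Of the 8 tested fibrillar collagen genes 1 passed 2-fold, with a median log2 ratio of 0.29. The 23 tested collagen processing genes had 1 at least 2-fold higher, 18 above 0 and a median of 0.16. Over all tested genes 0.235% were at least 2-fold higher. The 14 elastic fibre genes had a median of 0.13, with Lox high and Efemp1 (44.1 and 88.1 CPM) low.

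Not every scar gene was higher. Postn, the matricellular protein used most widely to mark activated cardiac fibroblasts, was at 3091 and 3317 CPM, a log2 ratio of -0.10 that became 0.10 after thinning. Cilp, another scar matrix gene, was at 334 and 436 CPM, and Thbs4 at 146 and 160 CPM. After thinning, Thbs4 was at 144 and 139 CPM. In the matricellular list, 5 of 25 tested genes passed 1.5-fold toward infarct and 2 toward peri-infarct, with a median of -0.08. The shares over all tested genes were 1.57% and 2.18%. Basement membrane genes leaned toward peri-infarct, with 10 of 13 below 0 and a median of -0.30; Lamc1, a laminin chain, was at 339 and 536 CPM and Col15a1 at 594 and 876 CPM.

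Markers of activated fibroblasts were shifted toward infarct as a list without reaching 2-fold. None of 19 tested genes passed 2-fold, 8 reached 1.5-fold toward infarct, 1 reached it toward peri-infarct, and the median log2 ratio was 0.53. Over all tested genes 1.57% reached 1.5-fold toward infarct and 2.18% toward peri-infarct. Cthrc1, a secreted protein of scar-forming fibroblasts, was at 1155 and 730 CPM (1.58-fold). Acta2, the smooth muscle actin of myofibroblasts, was at 733 and 433 CPM (1.69-fold), and Runx1, a transcription factor, at 163 and 89.96 CPM (1.81-fold). Meox1, a homeobox factor of activated fibroblasts, went the other way at 211 and 328 CPM. Contractile genes had a median of 0.34, with 12 of 15 above 0 and Palld (palladin, an actin-binding protein) at 302 and 182 CPM. Summed smooth muscle markers were at 1617 and 1124 CPM, most of it Tagln and Acta2 themselves, whereas Myh11, the smooth muscle myosin, was at 18.7 and 35.4 CPM, lower in infarct.

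Among the lists, that of resident and adventitial markers leaned most toward peri-infarct by its median. Like the others, it was chosen with earlier results of these data known. Of 23 tested genes 5 were at least 2-fold lower, 12 at least 1.5-fold lower and none higher by 1.5-fold, with 22 below 0 and a median log2 ratio of -0.60. Over all tested genes 0.570% were at least 2-fold lower and 2.18% at least 1.5-fold lower. Gsn (ENSMUSG00000026879, chromosome 2, 35256380 to 35307892), which encodes the actin-severing protein gelsolin, was at 1389 CPM in infarct and 5231 CPM in peri-infarct, 3.77-fold lower (3.74 to 3.798). Clec3b (tetranectin; chromosome 9, 123150946 to 123157432) was at 319 and 734 CPM, 2.30-fold lower (2.26 to 2.35). Ackr3, a scavenging receptor for CXCL12, was at 37.2 and 91.2 CPM, and Sema3c, a secreted semaphorin, at 54.1 and 124 CPM. Ly6c1 was at 32.0 and 68.0 CPM; it has a near-identical neighbour, Ly6c2, and its count is uncertain for that reason. Less than 2-fold lower were Pi16 (643 and 1155 CPM), Cd34 (397 and 717 CPM), Dpep1 (80.6 and 148 CPM), Tcf21 (90.8 and 129 CPM) and Pdgfra (134 and 177 CPM). In the sham gate Gsn was at 24206 CPM and Clec3b at 1307 CPM, both above peri-infarct.

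The Gsn difference spanned the distribution of cells. Per 2000 UMIs the infarct cells had a median of 2 Gsn UMIs, with the lower and upper quartiles at 0 and 4, and the peri-infarct cells a median of 6, with quartiles at 2 and 18. Cells with 10 or more Gsn UMIs made up 8.48% of the infarct gate and 41.1% of the peri-infarct gate. Gsn was also lower in infarct outside the fibroblasts: 143 and 1584 CPM in the endothelial gate (log2 ratio -3.46), 668 and 2689 CPM in mural cells (Rgs5 and Kcnj8 UMIs, 976 and 633 cells, -2.01) and 289 and 1178 CPM in leukocytes (-2.02). Clec3b had the same order in these gates (-1.41, -2.19 and -2.52), as had Tnxb at 14.9 and 36.8, 38.4 and 86.4, and 8.65 and 25.1 CPM. Whether the fibroblast-type RNA in those other gates was free RNA was not tested. Fn1 was at 1.32 in the endothelial gate, 0.43 in mural cells and -0.05 in leukocytes. Cxcl1 was at -0.14, 0.49 and 0.85 in the same order.

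Outside that list, genes at least 2-fold lower in infarct had varied roles. Gstm1, a glutathione transferase, was at 41.2 and 122 CPM (2.95-fold lower, 2.80 to 3.10), with the reservation that Gstm family members are alike in sequence. Prg4 (lubricin) was at 41.3 and 117 CPM, Tnxb (tenascin X) at 88.5 and 242 CPM, Tppp3, a tubulin-binding protein, at 91.3 and 218 CPM, and Abca8a, a lipid transporter, at 73.7 and 176 CPM. Kcnk2, a potassium channel, was at 34.1 and 79.8 CPM, and Pla1a, a phospholipase, at 35.4 and 76.2 CPM. Hist1h2ap, one of several near-identical histone genes, was at 31.9 and 76.8 CPM. The 2 remaining genes, named after their values were seen, were the haemoglobin gene Hbb-bs (7.18 and 104 CPM) and Selenbp1 (39.98 and 81.8 CPM), which encodes a selenium-binding protein.

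A small group of cells in the gate carried mesothelial transcripts. Msln was at 46.6 and 123 CPM and Upk3b at 33.8 and 70.1 CPM, both lower in infarct. Of 10 mesothelial and epicardial markers, 9 were lower in infarct, the exception being Wt1 at 48.1 and 34.1 CPM. In thinned cells Msln was found in 2.70% of infarct and 4.60% of peri-infarct cells. Upk3b was present in 57.1% of the 140 infarct and 75.7% of the 70 peri-infarct cells with Msln, but in 0.753% and 0.551% of the others. With cells carrying a Msln UMI removed, together with those with Pecam1, Rgs5, Myh11 or Tyrobp, the log2 ratio of Upk3b turned from -1.03 to 0.50, while 12 genes passed 2-fold toward infarct and 17 toward peri-infarct.

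Wif1, a secreted Wnt inhibitor, was almost missing from infarct. It gave 11 UMIs in infarct (0.150 CPM) and 288 in peri-infarct (11.9 CPM), 79.7-fold lower (43.9 to 162), and 225 CPM in the sham gate, but lay under the level for testing. In thinned cells it was found in 0.0771% of infarct cells (0.0210 to 0.197%) and 0.920% of peri-infarct cells (0.504 to 1.54%), against 0.389% of the peri-infarct endothelial gate (0.106 to 0.994%), whose interval overlaps. The same order was present in other gates. Wif1 was at 0.111 and 63.1 CPM in the Pdgfra gate described below, in 0.0232% and 3.88% of its thinned cells. Mural cells had 0 and 95.6 CPM and leukocytes 0 and 11.2 CPM. Other Wnt genes leaned to infarct, with a median of 0.29. Of 7 tested, 3 were at least 1.5-fold higher, against 1.57% of all tested genes. These were Sfrp2, Sfrp1 (623 and 386 CPM) and Wnt4 (74.6 and 44.1 CPM).

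Shares of cells with a state marker mostly had the order of the summed levels, Postn and Thbs4 being exceptions. Thbs4 was present in 9.81% of thinned infarct cells (9.02 to 10.7%) and 9.53% of thinned peri-infarct cells (8.10 to 11.1%), which overlap. After thinning, Cthrc1 was present in 65.8% of the infarct gate (64.5 to 67.1%) and 36.3% of the peri-infarct gate (33.9 to 38.8%), against 3.14% and 1.56% in the endothelial gate. Comp was present in 30.9% and 13.7%, and Postn in 85.9% and 76.5%. Pi16 was present in 48.4% (47.1 to 49.8%) and 61.1% (58.6 to 63.5%), Smoc2 in 32.7% and 43.0%, and Dpep1 in 12.8% and 20.6%. Cilp was found in 29.9% (28.6 to 31.1%) and 31.1% (28.8 to 33.5%), which overlap. Before thinning, Cthrc1 was in 86.4% and 56.0% of cells and Pi16 in 77.7% and 84.2%. Acta2 was present in 34.9% and 21.4%, with an endothelial background of 18.8% and 15.7%. Mki67, a proliferation marker, was found in 3.16% and 3.22%, not above the endothelial gate (3.66% and 4.19%), and Tbx18, the gene driving the label, in 4.61% and 5.13%. Activated and resident markers were not exclusive, but resident markers differed in how often they occurred with Cthrc1. In infarct, Pi16 was found in 49.97% of the 3412 cells with Cthrc1 and 45.5% of the others. In peri-infarct it was found in 59.8% of 552 cells and 61.8% of the others. Clec3b was less frequent in cells with Cthrc1, at 29.6% against 43.9% of the others in infarct and 40.04% against 64.3% in peri-infarct. Gsn had the same order, at 72.1% against 78.4% in infarct and 79.9% against 90.4% in peri-infarct.

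**Figure D3:**
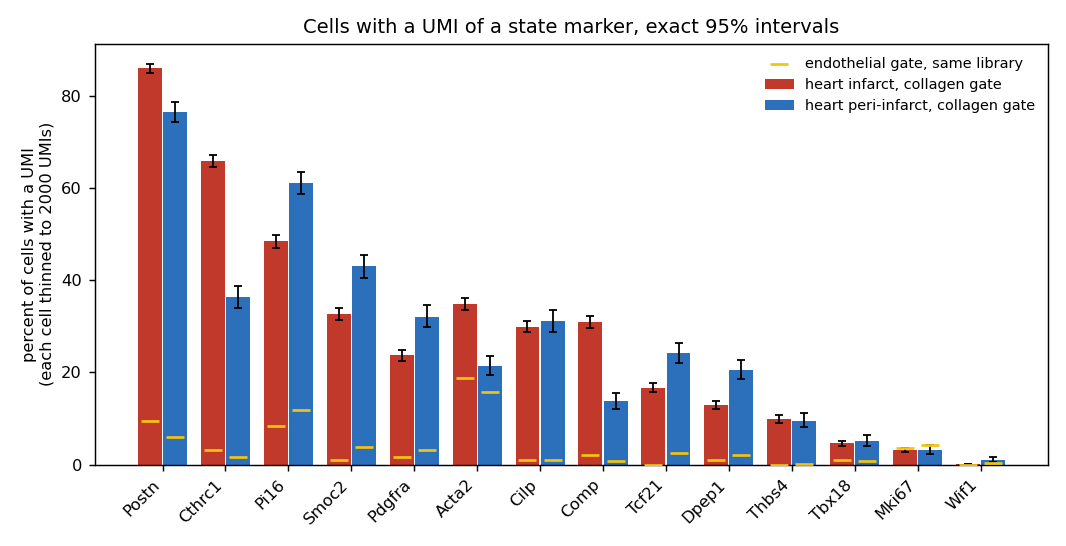
Percent of collagen-gated cells with at least 1 UMI of each state marker after thinning to 2000 UMIs (vertical axis), infarct in red and peri-infarct in blue, with exact 95% intervals for counting error; yellow marks show the endothelial gate of the same library. Cthrc1 shows the widest gap (65.8% and 36.3%), Pi16 the opposite order (48.4% and 61.1%), and Cilp nearly equal bars.

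Because the infarct cells held more collagen, the comparison was repeated among cells of like collagen share. In cells of 1 to 1.5% (766 and 665 cells) Cthrc1 was at 521 and 217 CPM, in cells of 1.5 to 2.5% (1774 and 447) at 1065 and 713 CPM, and in cells above 2.5% (2660 and 419) at 1393 and 1430 CPM. Cthrc1 was thus at nearly the same level among the cells richest in collagen. Gsn was at 1946 and 7627 CPM, 1476 and 5232 CPM, and 1174 and 2042 CPM in the same bins, lower in infarct in each. Cxcl1 was higher in infarct in each bin, at 508 and 279 CPM, 695 and 306 CPM, and 916 and 459 CPM. Postn went from 2281 and 2048 CPM in the lowest bin to 3472 and 5185 CPM in the highest. Genes past 2-fold, higher then lower, numbered 14 and 18 of 3091 tested, 7 and 21 of 2991, and 2 and 3 of 2893.

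When infarct cells were weighted to the collagen shares of the peri-infarct cells, 3 of 3011 tested genes passed 2-fold toward infarct and 9 toward peri-infarct. The activated list's median was then 0.15, against 0.53 without weighting, and the resident list stayed at -0.58. The fibrillar collagen median came to 0.03, but that list holds Col1a1, Col1a2 and Col3a1, whose share set the weights. Its move toward 0 is in part a product of the weighting. Log2 ratios under this weighting were 1.49 for Cxcl2, 0.996 for Cxcl1, 0.88 for Wisp2, 0.63 for Fn1, 0.30 for Cthrc1 and -1.70 for Gsn.

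**Figure D4:**
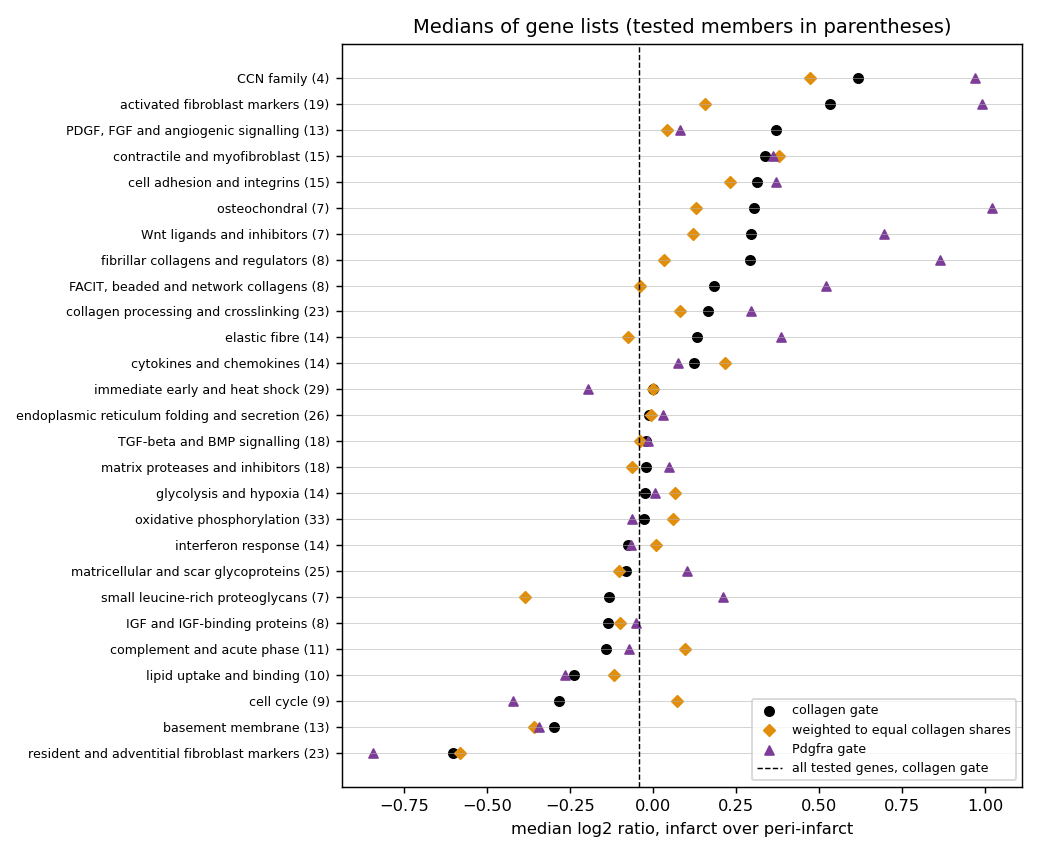
Median log2 ratio, infarct over peri-infarct, of the tested members of each gene list (rows, number of members in parentheses) in the collagen gate (black), after weighting infarct cells to the peri-infarct collagen shares (orange) and in the Pdgfra gate (purple); the dashed line is the median of all tested genes. The resident list is lowest in all of these, while the activated and fibrillar collagen lists move toward 0 with the weighting. The fibrillar list holds Col1a1, Col1a2 and Col3a1, whose share set the weights.

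The division by Cthrc1 gave a similar picture, as a description, since it uses measured values. Among thinned cells with a Cthrc1 UMI (3412 in infarct and 552 in peri-infarct), 4 of 2937 tested genes passed 2-fold toward infarct and 6 toward peri-infarct. Among those without (1775 and 969 cells), 21 and 14 of 3034 did so. The activated list had medians of 0.06 and 0.40 in cells with and without Cthrc1, and the resident list -0.40 and -0.57. Cxcl1 was higher in infarct in both (1.52 and 1.31), Fn1 more so in cells without Cthrc1 (0.50 and 1.19), and Pi16 lower by a like amount in both (-0.77 and -0.76). Other resident markers differed between the parts, with Gsn at -0.87 and -1.86 and Dpep1 at -0.15 and -0.93. Sema3c (-1.21 and -0.67) and Igfbp6 (-0.46 and -0.21) had the larger difference in cells with Cthrc1.

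A gate that uses no collagen put more genes past 2-fold. Cells with a Pdgfra UMI and none of Cdh5, Ptprc and Kcnj8 numbered 4313 in infarct and 3543 in peri-infarct. Of these, 87.5% and 35.5% were also in the collagen gate, and their median collagen shares were 2.36% and 0.769%. There 3045 genes were tested, and 36 passed 2-fold toward infarct (1.18%) and 38 toward peri-infarct (1.25%). Of the 7 genes higher in the collagen gate 5 were among these 36, and of the 17 lower 13 were among the 38. H19 and P4ha3 were 2-fold higher there too but fell under 50 CPM. Gsn was at 1906 and 11575 CPM, Fn1 at 2381 and 778 CPM, Cthrc1 at 992 and 332 CPM and Postn at 2803 and 2004 CPM. Postn, Cilp (282 and 219 CPM) and Thbs4 (109 and 68.1 CPM) were thus higher in infarct in this gate and lower in the collagen gate without thinning. Ccl7 was at 84.2 and 81.8 CPM, short of the 1.5-fold it reached in the collagen gate. Activated markers had 9 of 18 at least 2-fold higher (median 0.99), and resident markers 10 of 27 at least 2-fold lower (median -0.84).

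**Figure D5:**
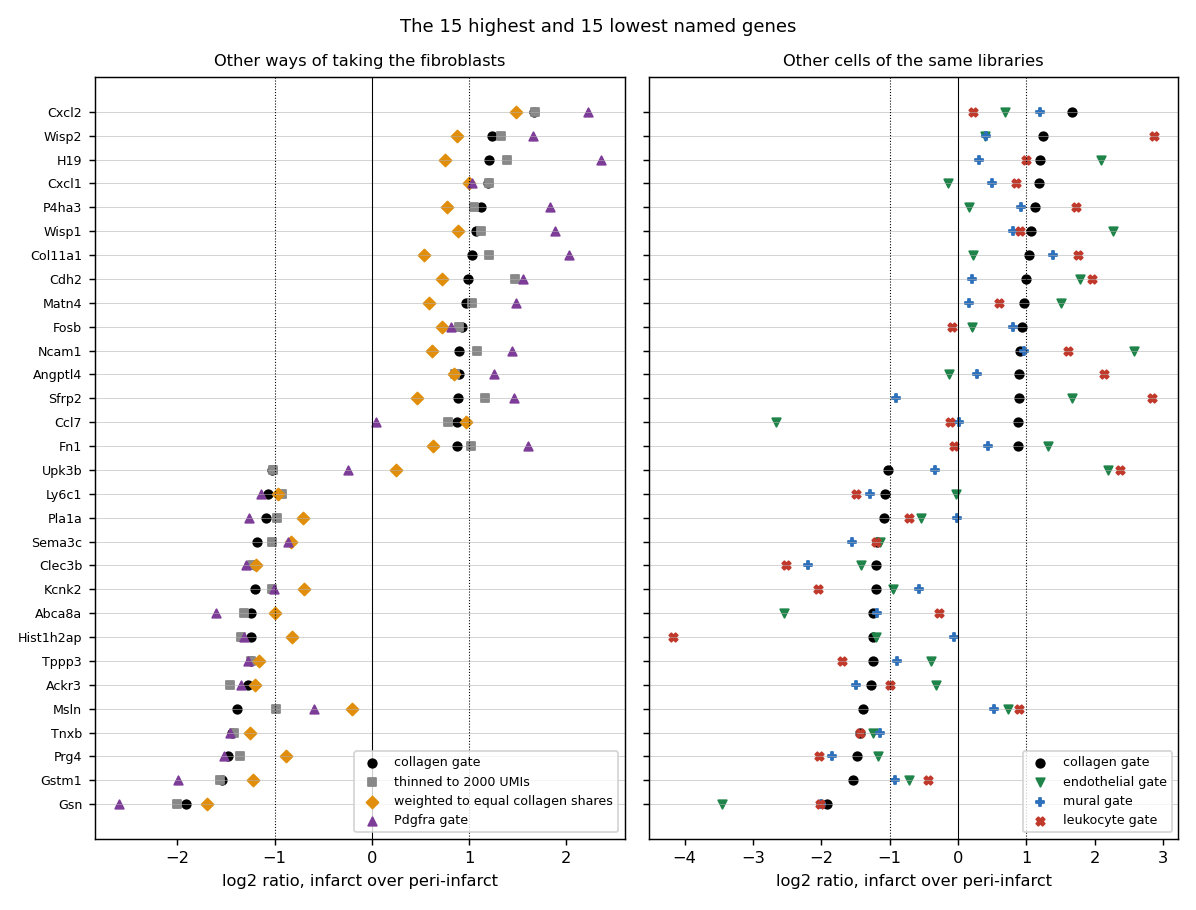
Log2 ratio, infarct over peri-infarct (horizontal axis), of the 15 highest and 15 lowest named genes in the collagen gate (black, both panels), in other definitions of the fibroblasts (left) and in endothelial, mural and leukocyte gates of the same libraries (right); dotted lines mark 2-fold. Gsn and Clec3b lie below 0 in every gate drawn, Cxcl1 lies above 0 in all but the endothelial gate (-0.14), and Upk3b changes sign.

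Lists of metabolic and secretory genes, and that of TGF-beta and BMP signalling, stood near the median of all genes. The median was -0.03 for 33 oxidative phosphorylation genes, -0.02 for 14 glycolysis and hypoxia genes, -0.01 for 26 endoplasmic reticulum folding genes and -0.02 for 18 TGF-beta and BMP genes, with no gene of the 4 lists called at 1.5-fold. Ltbp1, which binds latent TGF-beta, came closest at 40.4 and 60.9 CPM. Immediate early and heat shock genes, which cell dissociation can raise, had a median of -0.0014 with 2 of 29 at least 1.5-fold higher, led by Fosb (650 and 341 CPM), and 1 lower, Socs3 (117 and 180 CPM). Of 9 tested cell cycle genes 7 were below 0, with a median of -0.28 that turned to 0.0854 over the genes tested after thinning, 0.0607 for the mean of per-cell CPM and 0.0557 with the weighting by collagen share. Over the same 9 genes the median after thinning was -0.18. Adhesion genes had a median of 0.31, with Vcam1 (247 and 152 CPM) and Icam1 (140 and 89.8 CPM), which bind leukocyte integrins, among 4 of 15 at least 1.5-fold higher. Of 13 growth factor and angiogenic genes 8 were above 0 (median 0.37), including Angptl4 (81.8 and 43.4 CPM). The lipid list had a median of -0.24. Apoe, a lipid carrier, was at 845 and 1536 CPM. In thinned cells with a Cthrc1 UMI it was at 758 and 743 CPM, and in those without at 1652 and 2963 CPM. Leukocytes held far more Apoe (46168 and 35249 CPM), and the part that free leukocyte RNA had in its difference was not tested.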

How the data were processed

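The authors deposited unnormalised UMI counts, 1 value for each gene in each listed cell barcode. The submitters' processing notes name Cell Ranger 3.0.2, Seurat 3 and the mm10 build. They list 31053 genes, and 30934 gene IDs matched GENCODE vM21. Cells were gated as described, UMIs summed per library and scaled to 1000000 (CPM), and log2 ratios taken with a pseudocount of 1 CPM where the mean of both libraries reached 50 CPM. Ratios carry exact conditional binomial intervals and shares Clopper-Pearson intervals, at 95%. Thinning to 2000 UMIs used seed 1. The scripts were tested on simulated data.

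Named genes were the 15 highest and 15 lowest ratios without ribosomal, mitochondrial, predicted and haemoglobin genes, 12 fixed genes, and up to 4 members per list, with state markers and gate genes beside them. The members and the 27 gene lists were chosen with earlier results of these data known. Of the alternatives, 21 were planned; weighting by collagen share in 8 bins was added after seeing the data. Doublets were kept in the gate and scored with Scrublet in scanpy 1.11.5; its automatic threshold marked 0 infarct and 184 peri-infarct cells, so the alternative removed the highest scores (0.8% per 1000 barcodes). Tools were Python 3.11.15, numpy 2.4.6, scipy 1.17.1, pandas 2.3.3, matplotlib 3.10.9, R 4.3.3 and edgeR 4.0.16. Promoters came from RefSeq.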

Additional observations from a re-analysis of the deposited data

Results flagged for a closer look

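For 3 named genes, each averaging at least 50 CPM and differing by at least 1.5-fold in both gates compared, the infarct and peri-infarct libraries differed in one direction in the fibroblast gate and in the opposite direction in another gate of the same libraries. Each rests on 1 library per group, and the difference between gates was not tested. Runx1 was at 163 and 89.96 CPM in fibroblasts, infarct first, and at 148 and 238 CPM in leukocytes (188 and 125 cells), a difference of 1.53 between the log2 ratios. Hp, the haemoglobin-binding acute phase protein haptoglobin, was at 68.8 and 38.7 CPM in fibroblasts and at 11.3 and 126 CPM in mural cells, a difference of 4.18. Vcam1 was at 247 and 152 CPM in fibroblasts and at 35.6 and 176 CPM in mural cells, a difference of 2.98. The mural gates also differed in fibroblast transcripts, with Dcn at 609 and 3155 CPM and Pdgfra at 9.31 and 51.7 CPM. Col1a1 there was at 786 and 746 CPM. The part that fibroblast-type RNA had in the mural values of Hp and Vcam1 was not tested.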

How the results depend on the processing

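Counts of genes at least 2-fold higher and lower in infarct were 7 and 17. They became 25 and 29 with a collagen share of at least 0.5%, 5 and 8 at 2%, 36 and 38 with the Pdgfra gate, 15 and 34 with a mean of at least 20 CPM, 3 and 5 at 100 CPM, 55 and 123 with no filter, 47 and 65 at 1.5-fold and 3 and 9 with the weighting by collagen share, added after seeing the data. The CPM filters change the number of genes tested, from 2985 to 6005 at 20 CPM, 1543 at 100 CPM and 31053 with no filter. Counts under these filters therefore have unlike totals. The number higher was also 12 with the further exclusions (Pecam1, Rgs5, Myh11, Tyrobp and Msln), 11 for the mean of per-cell CPM, 13 with thinning and 4 with a pseudocount of 10 CPM. In the other settings, among them the gene and mitochondrial filters and removal of 409 and 144 possible doublets, counts stayed within 1.5 times. Of 22 named genes called at 2-fold, 20 kept their sign in every setting. Msln was at 0 with the further exclusions, which remove its cells, and Upk3b was at 0.4976 with the further exclusions and 0.2446 with the weighting. The medians of the growth factor and osteochondral lists turned to -0.0187 and -0.0052 at a collagen share of 2%, and the elastic fibre median to -0.0754 with the weighting. The cell cycle median turned to 0.0854 with thinning, 0.0607 for the mean of per-cell CPM and 0.0557 with the weighting. Each of these cell cycle medians covers the genes tested in that setting. Over the 9 cell cycle genes tested in the main setting, the median with thinning stayed below 0, at -0.18. The median of small leucine-rich proteoglycans turned from -0.1323 to 0.1923 at a collagen share of 0.5% and 0.2110 with the Pdgfra gate. It was 0.0405 with thinning and 0.0019 for the mean of per-cell CPM. The median of FACIT, beaded and network collagens turned from 0.1816 to -0.0002 at a collagen share of 2% and -0.0390 with the weighting. That of complement and acute phase genes turned from -0.1415 to 0.0965 with the weighting. The causes of these changes were not tested.

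No paired analysis was possible because each group has 1 library. Ratios of genes near 50 CPM rest on fewer UMIs, and the peri-infarct sum was the shallower.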
